A study of Mus musculus with 3 samples.

Results

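Meiotic recombination was followed through 8 genes, Spo11, Meiob, Dmc1, Hfm1, Msh4, Msh5, Rnf212 and Mlh3, which were chosen by name for their known roles in making breaks, exchanging strands and forming crossovers. All 8 were matched by symbol among the 31053 genes listed in each library. Testicular cells of wild-type (WT), GRTH knock-out (KO) and GRTH knock-in (KI) mice had been profiled by droplet single-cell RNA-seq, with transcripts counted as unique molecular identifiers (UMIs). GRTH is the RNA helicase of male germ cells that the gene Ddx25 encodes. KO mice lack it, and KI mice carry a human GRTH gene with a missense mutation and so have the protein without its phosphorylated form. All mice were C57BL/6 males, and tubules were dissociated with collagenase and trypsin before 7000 cells per genotype were loaded. The labels give 1 mouse of 8 weeks for each genotype, whereas the methods of the study describe pooled testes and a wider age range. With 1 library per genotype there is no replicate, no test was possible, and genotype cannot be told apart from library. Levels are given as UMIs per 1000000 UMIs of the cells concerned (CPM). Ranges in parentheses are exact 95% intervals, Poisson for a level and conditional binomial for a fold, and cover counting error only.

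Meiotic recombination starts when SPO11 cuts both DNA strands. The ends are resected and covered by single-strand binding proteins, among them MEIOB, and the recombinase DMC1 then pairs them with the homologous chromosome. HFM1, MSH4, MSH5 and RNF212 act on the joints that are to become crossovers, and MLH3 acts in resolving them. In the male these steps take place in spermatocytes, in the long prophase that follows the last divisions of spermatogonia.

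The 8 genes lie on 6 chromosomes of GRCm38 (GENCODE M21). Spo11 (ENSMUSG00000005883) spans 172977700 to 172993576 of chromosome 2 and Meiob (ENSMUSG00000024155) spans 24804289 to 24839788 of chromosome 17, both on the plus strand. The other 6 are on the minus strand. Dmc1 (ENSMUSG00000022429) spans 79561497 to 79605109 of chromosome 15, and Hfm1 (ENSMUSG00000043410) spans 106840192 to 106926321 of chromosome 5. Msh4 (ENSMUSG00000005493) spans 153857149 to 153906138 of chromosome 3, and Msh5 (ENSMUSG00000007035) spans 35028605 to 35046745 of chromosome 17. Mlh3 (ENSMUSG00000021245) spans 85234520 to 85270599 of chromosome 12. Rnf212 (ENSMUSG00000055385) spans 108729290 to 108774982 of chromosome 5 and overlaps a counted gene on the other strand, 1700047L14Rik.

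Dmc1 and Msh5 were the members furthest above WT in early prophase cells, and Mlh3 had its highest level later than they had. The 250 bases before their RefSeq starts (GRCm38.p6) are shown with those of Rnf212, which shares a motif with Msh5. Capitals mark matches on either strand to GCGGGAA (E2F), GGGCGG (GC box), CCAAT (the box of that name) or CCGTT (MYB core), the only motifs searched.
Dmc1: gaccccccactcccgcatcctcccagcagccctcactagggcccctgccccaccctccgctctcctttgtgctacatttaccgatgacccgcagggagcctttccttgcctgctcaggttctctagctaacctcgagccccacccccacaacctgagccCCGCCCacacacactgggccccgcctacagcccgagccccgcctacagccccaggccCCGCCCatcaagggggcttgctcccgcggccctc
Msh5: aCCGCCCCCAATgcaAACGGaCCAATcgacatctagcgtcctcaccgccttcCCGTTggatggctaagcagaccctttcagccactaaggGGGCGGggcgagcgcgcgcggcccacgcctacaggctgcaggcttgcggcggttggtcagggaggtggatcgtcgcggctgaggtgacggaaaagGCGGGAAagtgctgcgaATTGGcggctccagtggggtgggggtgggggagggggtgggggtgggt
Rnf212: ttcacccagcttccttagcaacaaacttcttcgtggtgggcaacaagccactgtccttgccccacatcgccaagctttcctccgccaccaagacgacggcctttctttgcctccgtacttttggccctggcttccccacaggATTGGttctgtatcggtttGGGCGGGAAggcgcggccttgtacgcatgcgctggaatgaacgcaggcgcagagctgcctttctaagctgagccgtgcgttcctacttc
Mlh3: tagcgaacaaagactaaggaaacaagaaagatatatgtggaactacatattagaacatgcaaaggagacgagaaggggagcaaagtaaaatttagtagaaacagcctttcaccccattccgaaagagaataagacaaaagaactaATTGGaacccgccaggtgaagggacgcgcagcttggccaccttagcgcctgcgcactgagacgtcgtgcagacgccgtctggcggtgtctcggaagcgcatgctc
All 4 windows are read from the minus strand, at chr15:79605110-79605359 for Dmc1, chr17:35046623-35046872 for Msh5, chr5:108775028-108775277 for Rnf212 and chr12:85270600-85270849 for Mlh3. The E2F letters were found in Msh5 and Rnf212, and in 3.82% of the 32851 windows of all genes. In Rnf212 they overlap the GC box. In Msh5 they lie 65 to 59 bases before the RefSeq start, in the part of the window that falls inside the GENCODE span of Msh5 given above. A GC box was found in Dmc1, Msh5 and Rnf212 and in 32.7% of all windows, a CCAAT box in Msh5, Rnf212 and Mlh3 and in 33.8%, and the MYB core in Msh5 and in 14.5%. Windows of Hfm1 and Msh4, which lie wholly within their GENCODE spans, were searched as well and held none of the 4 motifs. Those of Spo11 and Meiob were not analysed here. GC content ran from 43.6% in Msh4 to 75.6% in Hfm1, against a median of 52.4% over all windows.

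After cell calling and filters, 5855, 4069 and 1575 cells of WT, KO and KI were kept, with median depths of 5145, 3969 and 11727 UMIs. Clustering left out the 8 members, 48 other recombination genes and Ddx25. Clusters were named from markers as spermatogonia-like (SG-like), early prophase-like (EP-like), pachytene-like (PA-like), late spermatocyte-like (LS-like), round spermatid-like (RS-like) and elongated spermatid-like (ES-like), with EP/PA-like and PA/LS-like for clusters between classes. The classes from SG-like to LS-like held 693, 845 and 373 cells, of which 32, 34 and 20 were SG-like and 77, 98 and 56 EP-like. Clusters left unnamed are outside these classes. Among them, early prophase markers came first in that of 98, 61 and 42 cells, at a z-score of 0.491, under the limit of 0.5. Its median UMIs were also low, and its cells are not in the EP-like values. Late spermatocyte markers came first in an unnamed cluster of 178, 158 and 96 cells. Markers of early prophase, led by the synaptonemal complex genes Sycp1 and Sycp3, summed to 8989, 10015 and 10596 CPM in EP-like cells, more than in any other germ cell class. Ddx25 stood at 239, 0.425 and 80.2 CPM in LS-like cells, so it was close to 0 in KO, and how many transcripts of the human gene of KI map to the mouse gene was not tested. Pairs of libraries shared 8 to 36 cell barcodes, and 0, 4 and 25 cells from SG-like to LS-like carried such a barcode. Spermatid RNA was unequal, with ES markers at 16573, 1188 and 355 CPM in SG-like and 3422, 1407 and 590.2 CPM in EP-like cells of WT, KO and KI. Free RNA estimated from these markers made up 29.8%, 5.58% and 1.24% of the UMIs of SG-like cells. It counts in the totals behind SG-like levels, so these and the folds from them carry this inequality. As a background, the members were also counted in 45001 barcodes per library that held no cell, and a level is called below that background where its value is lower, whether or not the intervals overlap. Values below are in the order WT, KO and KI unless named.

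Dmc1 was already present in SG-like cells and was highest in EP-like cells. Early prophase markers came second in the SG-like cluster, at a z-score of 1.13 against 3.58 for spermatogonia. With stages set by the share of marker UMIs, only 5, 7 and 10 cells were SG-like. Whether SG-like levels come from cells entering prophase was not tested. Meiob, Hfm1, Msh4, Msh5 and Rnf212 were also highest in EP-like cells, and Spo11 and Mlh3 in EP/PA-like cells. The class of highest level was the same in all 3 libraries for each gene. It was separate from the next class by its interval in each library for Meiob, Dmc1, Hfm1, Msh4 and Msh5, in KI for Rnf212, in WT and KI for Mlh3 and in none for Spo11.

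**Figure D1:**
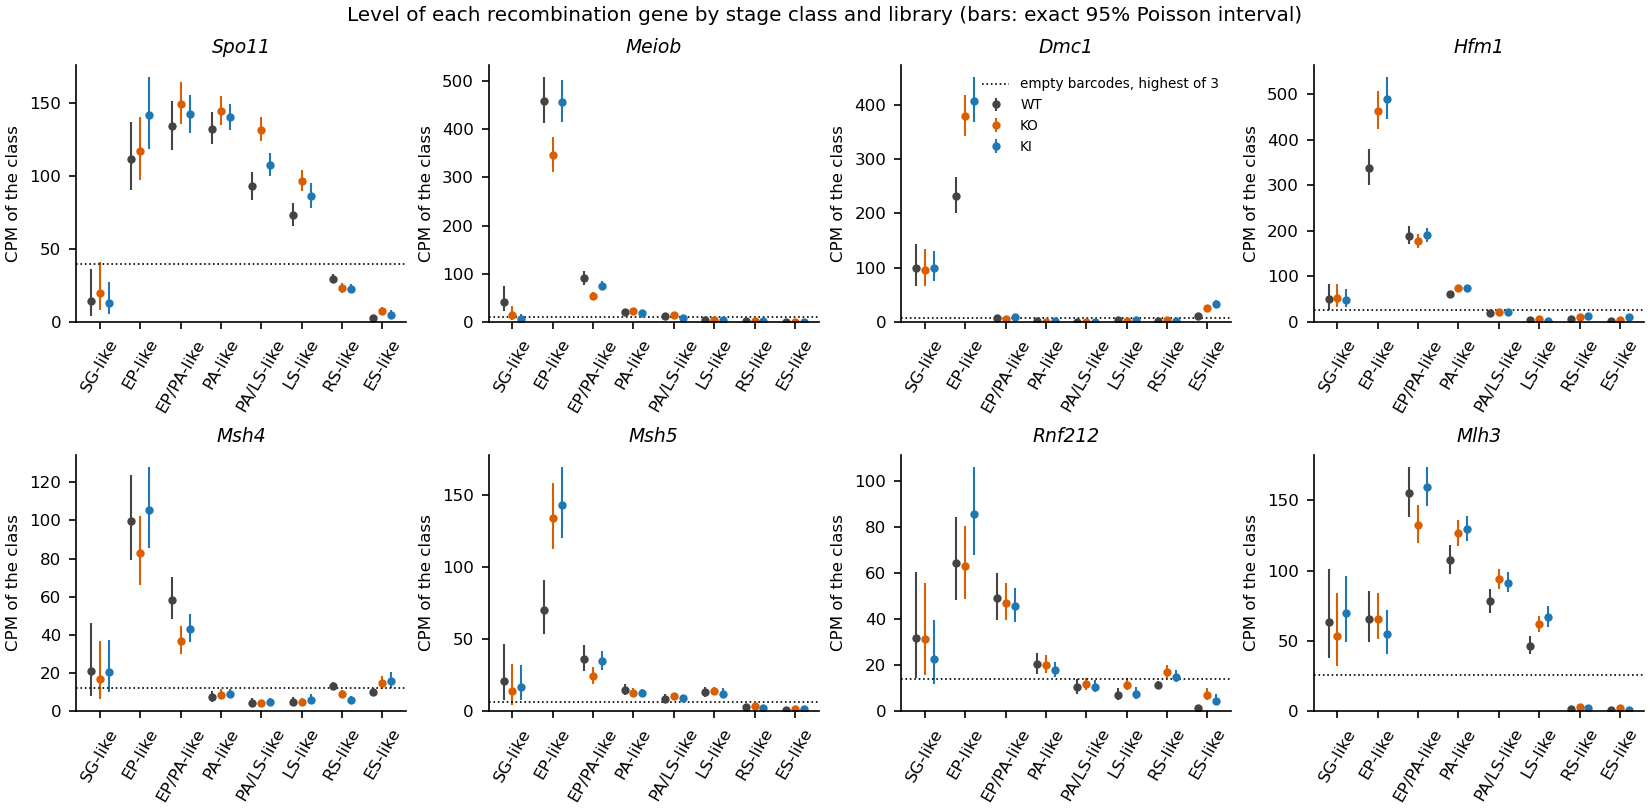
Each panel plots the CPM of a gene (vertical axis, linear, from 0) by germ cell class in order of development (horizontal axis) in the WT, KO and KI libraries, as points with exact 95% Poisson intervals. Dmc1 drops from 232, 379 and 408 CPM in EP-like cells to 7.84, 5.23 and 9.93 CPM in EP/PA-like cells, whereas Spo11 is still at 73.3, 96.3 and 85.9 CPM in LS-like cells.

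Spo11, which makes the breaks, was at 14.2, 19.8 and 13.2 CPM in SG-like cells, below its empty barcodes (31.8, 39.4 and 34.2 CPM). EP-like cells held 112, 117 and 141 CPM, which was 7.87-fold (2.97 to 29.5), 5.9-fold (2.78 to 15) and 10.7-fold (5.05 to 27.1) the SG-like level. The transcript then stayed high. EP/PA-like cells held 134, 149 and 142 CPM, PA-like cells 132, 144 and 139.9 CPM, PA/LS-like cells 92.7, 132 and 108 CPM and LS-like cells 73.3, 96.3 and 85.9 CPM. EP/PA-like and PA-like cells overlapped in each library. Sertoli-like cells, which are somatic, held 41.6 to 79.1 CPM over the libraries. That was above the empty barcodes by value and reached into the range of LS-like cells. RS-like cells held 29.5, 23.2 and 22.6 CPM, again below the empty barcodes, but its clusters were unlike. That of 212, 158 and 62 cells held 59.3, 38.7 and 39.3 CPM, above the empty barcodes by its interval in WT, that of 132, 129 and 54 cells 34.9, 25.7 and 23.2 CPM and that of 384, 214 and 100 cells 14, 14.4 and 13.7 CPM. The classes from SG-like to LS-like held 62.3%, 70.5% and 78.9% of the Spo11 UMIs of kept cells.

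Meiob, which binds single-stranded DNA, was at 459 (414 to 507), 346 (310.4 to 384) and 456 (414 to 501) CPM in EP-like cells, with KO below both others. It was at 90.4, 53.7 and 75.2 CPM in EP/PA-like cells, a step down of 5.07-fold (4.23 to 6.11), 6.44-fold (5.31 to 7.83) and 6.06-fold (5.18 to 7.11). PA-like cells held 20.7, 23 and 19.5 CPM, within the 12.1 to 30.1 CPM of Sertoli-like cells over the libraries. LS-like cells held 3.43, 5.1 and 4.03 CPM, below the empty barcodes (9.58, 7.5 and 8.1 CPM). SG-like cells held 12, 5 and 3 UMIs.

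Dmc1, the meiotic recombinase, was high in SG-like and EP-like cells and fell off steeply after them. SG-like cells held 99.3, 96.4 and 100 CPM, with intervals that overlapped. EP-like cells held 232 (200.1 to 267), 379 (342 to 419) and 408 (368 to 451) CPM, so that KO and KI lay above WT without overlap, and overlapped each other. The step from SG-like cells was 2.33-fold (1.56 to 3.61), 3.93-fold (2.77 to 5.76) and 4.08-fold (3.06 to 5.54). The step down to EP/PA-like cells, at 7.84, 5.23 and 9.93 CPM, was 29.6-fold (17.5 to 53.9), 72.5-fold (43.4 to 131) and 41.1-fold (28.7 to 60.5). PA-like cells held 1.19, 0.703 and 1.23 CPM, below the empty barcodes (4.49, 5.6 and 7.71 CPM). The order of the 6 classes by Dmc1 level was the same in all 3 libraries. Its lowest classes, LS-like, PA-like and PA/LS-like, were all below the empty barcodes, and the last 2 overlapped in each library.

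Hfm1, a DNA helicase of the crossover pathway, declined step by step. It was at 49.7, 53.9 and 49 CPM in SG-like and 339 (299.98 to 381), 464 (423 to 508) and 490.04 (447 to 537) CPM in EP-like cells. EP/PA-like cells held 189, 178 and 191 CPM, PA-like cells 61.1, 74 and 73.7 CPM and PA/LS-like cells 18.8, 22.9 and 21.9 CPM. LS-like cells held 5.36, 5.81 and 3.39 CPM, under the empty barcodes (14.6, 18.2 and 27.4 CPM).

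Msh4 and Msh5 encode partners that clamp joint molecules. Msh4 was at 21.3, 17 and 20.7 CPM in SG-like, 99.5, 82.7 and 105 CPM in EP-like and 58.5, 36.9 and 43 CPM in EP/PA-like cells. Msh5 was at 21.3, 14.2 and 17 CPM in SG-like, 70.4 (53.4 to 91), 134 (112 to 158) and 143 (120.2 to 169.5) CPM in EP-like and 36.1, 24.4 and 34.6 CPM in EP/PA-like cells. In EP-like cells Msh5 of KO and KI lay above WT without overlap, whereas the intervals of Msh4 overlapped. PA-like cells held 7.38, 8.79 and 9.08 CPM of Msh4, where its empty barcodes held 12.3, 8.51 and 11.6 CPM, and 14.5, 12.7 and 12.6 CPM of Msh5, where its empty barcodes held 4.73, 6.72 and 5.35 CPM. LS-like cells still held 13.3, 14 and 12.3 CPM of Msh5.

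Rnf212, a factor of the SUMO ligase family that marks crossover sites, was at 31.9, 31.2 and 22.6 CPM in SG-like, 64.3, 63 and 85.4 CPM in EP-like, 49.1, 47 and 45.7 CPM in EP/PA-like and 20.5, 20.2 and 18 CPM in PA-like cells. It had the flattest onset of the genes highest in EP-like cells, 2.01-fold (0.985 to 4.65), 2.02-fold (1.06 to 4.25) and 3.77-fold (2.05 to 7.6). LS-like cells held 7.07, 11.6 and 7.42 CPM, below the empty barcodes (8.86, 14.2 and 13.6 CPM).

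Mlh3, the resolution factor, did not have a higher EP-like than SG-like level by its interval in any library. It was at 63.8, 53.9 and 69.8 CPM in SG-like and 65.5, 66 and 54.8 CPM in EP-like cells, then at 155 (138 to 174), 133 (119.8 to 147) and 159 (146 to 173) CPM in EP/PA-like cells. That step was 2.37-fold (1.77 to 3.23), 2.01-fold (1.55 to 2.65) and 2.91-fold (2.18 to 3.94). PA-like cells held 108, 127 and 129.7 CPM, PA/LS-like cells 78.1, 94 and 91.6 CPM and LS-like cells 46.7, 61.8 and 66.8 CPM. From LS-like to RS-like cells, at 1.33, 2.9 and 2.25 CPM, it dropped 35.1-fold (21.4 to 61.4), 21.3-fold (14.4 to 33) and 29.7-fold (18.9 to 49.4), to below the empty barcodes (14.2, 23.8 and 25.7 CPM). That step passes over the unnamed cluster of 178, 158 and 96 cells, where late spermatocyte markers came first and round spermatid markers second. It held Mlh3 at 7.63 to 17.6 CPM over the libraries, and the RS-like cluster of 212, 158 and 62 cells held 3.2 to 4.84 CPM.

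Finer timing came from ordering the cells from SG-like to LS-like of all libraries together by diffusion pseudotime, without the recombination genes, in 20 bins of equal cell number. Dmc1 was highest in bin 2, at 573, 729.8 and 725 CPM from 29, 41 and 26 cells. It was at 156, 153 and 157 CPM in bin 3, 43.8, 48.4 and 49.8 CPM in bin 4 and 0.985, 0.684 and 0.91 CPM in bin 5, so the loss spanned the same bins in each library. Meiob was highest in bin 3, at 503, 444 and 521 CPM, and was at 46.3, 33.5 and 41 CPM in bin 5. Hfm1 was highest in bin 2, at 404, 634 and 668 CPM, with 169, 159 and 172 CPM left in bin 5 and 74.9, 88.3 and 107 CPM in bin 7. Msh5 was highest in bin 2 as well, at 159, 244 and 251 CPM, and at 27.6, 66.3 and 50.3 CPM in bin 3. For Msh4, Rnf212, Mlh3 and Spo11 the highest bin was not the same in the 3 libraries. Mlh3 went from 20.5, 52.3 and 52.4 CPM in bin 2 to 145, 126 and 179 CPM in bin 4. Spo11 stood at 14.2, 26.9 and 15.7 CPM in bin 1, 189, 159.9 and 178 CPM in bin 2 and still 114, 142 and 108 CPM in bin 10. Which genes share a highest bin depended on the bin number. With 10 bins, Msh4 was highest in bin 2 and Mlh3 in bin 3 of each library, whereas Hfm1 was highest in bins 2, 1 and 2.

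**Figure D2:**
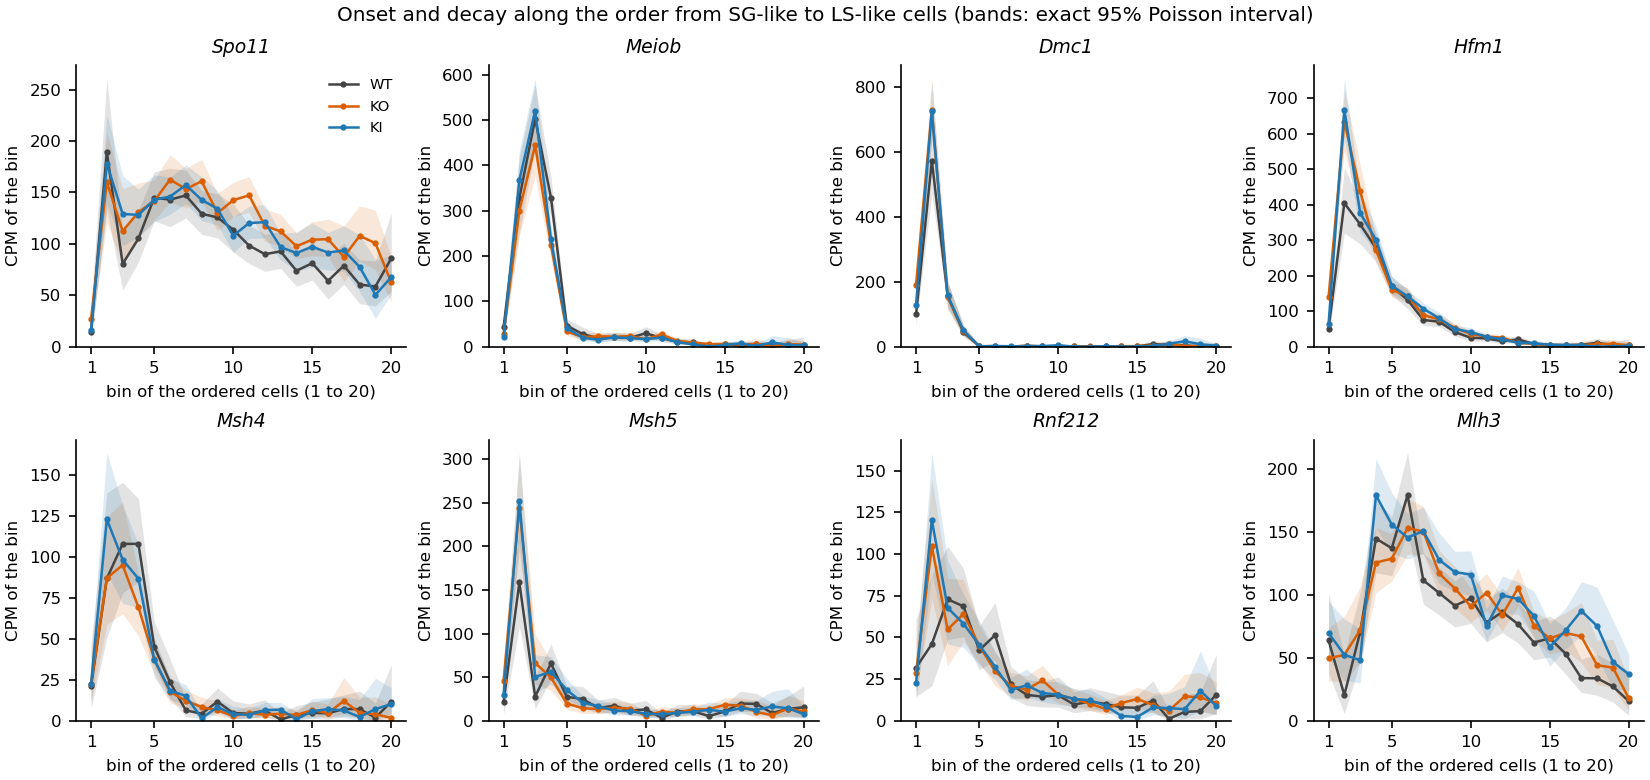
Each panel plots the CPM of a gene (vertical axis, linear, from 0) in 20 bins of cells ordered from SG-like to LS-like (horizontal axis, bin number), with a line per library and a band for the exact 95% Poisson interval. Dmc1, Hfm1 and Msh5 are highest in bin 2 and Meiob in bin 3 of each library, and Mlh3 is at 145, 126 and 179 CPM by bin 4.

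The share of EP-like cells with a UMI was compared at equal depth, each cell being thinned to 4000 UMIs, which left out 21, 22 and 3 shallower cells. Dmc1 was found in 33 of 56 (58.9%, 45 to 71.9), 53 of 76 (69.7%, 58.1 to 79.8) and 38 of 53 (71.7%, 57.7 to 83.2) cells, with exact Clopper-Pearson intervals. Meiob was found in 46 of 56 (82.1%, 69.6 to 91.1), 55 of 76 (72.4%, 60.9 to 82) and 35 of 53 (66%, 51.7 to 78.5) cells. Hfm1 was found in 73.2%, 86.8% and 83%, Msh5 in 30.4%, 48.7% and 37.7% and Mlh3 in 25%, 19.7% and 20.8%, and the intervals of the libraries overlapped for each of these genes. Unthinned, the shares for Dmc1 were 72.7%, 82.7% and 92.9% at median depths of 5856, 7322 and 15618 UMIs. In Sertoli-like cells, somatic cells that should lack these meiotic genes, the thinned counts were 0 of 40, 8 of 58 and 0 of 23 for Dmc1, 4 of 40, 4 of 58 and 0 of 23 for Meiob, 3 of 40, 3 of 58 and 2 of 23 for Hfm1 and 1 of 40, 3 of 58 and 0 of 23 for Msh5. Spo11, found in 35.7%, 40.8% and 45.3% of EP-like cells, was found in 5 of 40, 9 of 58 and 3 of 23 Sertoli-like cells. Mlh3, which is also known in cells outside meiosis, was found in 3 of 40, 6 of 58 and 5 of 23, and these cells are not read as its background. The Sertoli-like class held 194, 263 and 84 cells, with median depths of 1488, 1482 and 1695 UMIs before thinning. Thinning left out 154, 205 and 61 of these, so the thinned counts come from the deepest Sertoli-like cells only.

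In EP-like cells Dmc1 and Msh5 were higher in both KO and KI than in WT, Hfm1 was higher by less, and Meiob was lower in KO. Msh5 was 1.9-fold (1.39 to 2.63) WT in KO and 2.04-fold (1.49 to 2.82) in KI, and Dmc1 1.64-fold (1.37 to 1.956) and 1.76-fold (1.48 to 2.1). Hfm1 was 1.37-fold (1.18 to 1.59) and 1.45-fold (1.25 to 1.69), and Meiob 0.753-fold (0.65 to 0.874) and 0.995-fold (0.865 to 1.15). For Spo11, Msh4, Rnf212 and Mlh3 both intervals included 1, at folds from 0.831 to 1.33. Counting a ratio of CPM + 1 beyond 1.5 as past the fold, 2 of 8 were past the fold upwards and 0 downwards in KO, and the same counts held in KI. Of all genes with a mean of at least 10 CPM, 15.2% were higher and 10.3% lower in KO, and 11.4% higher and 15.7% lower in KI. The median log2 ratio of the 8 members was 0.04 in KO and 0.37 in KI, against 0.01 and -0.03 over all genes. Both contrasts share the WT library. Between KI and KO no member was past the fold, where 5.24% of all genes were higher and 15.2% lower in KI, and Meiob was 1.32-fold (1.14 to 1.52) its KO level in KI. In later classes the values past 1.5-fold between KI and KO whose interval left out 1 were those of Dmc1 in EP/PA-like cells, 1.9-fold (1.004 to 3.77), where 2.34% of all genes were higher and 1.91% lower, and Meiob in PA/LS-like cells, 0.614-fold (0.44 to 0.849), where 0.93% of all genes were higher and 1.24% lower. In EP/PA-like cells Dmc1 stood at 5.23 and 9.93 CPM in KO and KI, both under 10 CPM and the former below its empty barcodes at 5.6 CPM. The shares of all genes cover a mean of at least 10 CPM, which Dmc1 did not reach there. Thinned to 4000 UMIs, 7 of 96 EP/PA-like cells of KO and 2 of 54 of KI held a Dmc1 UMI. By cells with a UMI at equal depth, KI was thus not above KO, and the intervals overlapped. Fewer transcripts per cell and fewer expressing cells cannot be told apart in the summed UMIs.

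The EP-like cells of the libraries differed in their mix of early and late cells. They were divided at their median pseudotime, a choice made after these ratios were seen. The early part held 41.6%, 56.1% and 51.8% of the cells and 25.2%, 49% and 45.4% of the UMIs. Dmc1 was 4.5-fold (3.34 to 6.09), 4.52-fold (3.49 to 5.92) and 4.2-fold (3.3 to 5.4) higher in the early than in the late part, and Msh5 3.41-fold (1.97 to 5.95), 3.38-fold (2.25 to 5.19) and 3.9-fold (2.6 to 5.99). Within the early part Dmc1 stood at 555, 628 and 698 CPM and within the late part at 123, 139 and 166 CPM. KO was thus 1.13-fold (0.912 to 1.42) and 1.13-fold (0.806 to 1.58) WT in the 2 parts, and KI 1.26-fold (1.01 to 1.57) and 1.35-fold (0.979 to 1.86), all below 1.5-fold. Msh5 stood at 149, 209 and 241 CPM in the early and 43.8, 61.8 and 61.8 CPM in the late part. KO was 1.4-fold (0.927 to 2.16) and 1.41-fold (0.82 to 2.45) WT, and KI 1.61-fold (1.07 to 2.49) and 1.41-fold (0.82 to 2.45), so that Msh5 stayed past 1.5-fold in the early part of KI alone.

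Meiob was lower in the early than in the late part, at 362, 243 and 348 against 491, 444 and 547 CPM. In KO it was 0.672-fold (0.499 to 0.908) WT in the early and 0.904-fold (0.759 to 1.08) in the late part. Hfm1 stood at 409.9, 558 and 624 CPM in the early part, 1.36-fold (1.06 to 1.76) WT in KO and 1.52-fold (1.19 to 1.97) in KI, and at 315, 373 and 379 CPM in the late part. In the early part 2 of 8 members, Rnf212 and Mlh3, were past the fold in KO, where 17% of all genes were higher and 20.6% lower, and both intervals included 1. In KI these were 4 of 8, Hfm1, Msh5, Rnf212, Mlh3, where 16.1% of all genes were higher and 23.7% lower. Rnf212 rested there on 11, 40 and 47 UMIs and was 1.51-fold (0.762 to 3.27) WT in KO and 2.05-fold (1.05 to 4.39) in KI. Mlh3 rested on 4, 23 and 23 UMIs, and its intervals, 2.39-fold (0.818 to 9.52) in KO and 2.76-fold (0.945 to 11) in KI, included 1. In the late part 0 of 8 were past the fold in KO, where 14.7% of all genes were higher and 10.1% lower, and 0 of 8 in KI, where 8.84% of all genes were higher and 16.8% lower. ES markers summed to 9046, 1070 and 802 CPM and Sertoli markers to 2098, 343 and 744 CPM in the early part, and their part in these ratios was not tested. All 10 markers of both lists were detected there in WT.

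**Figure D3:**
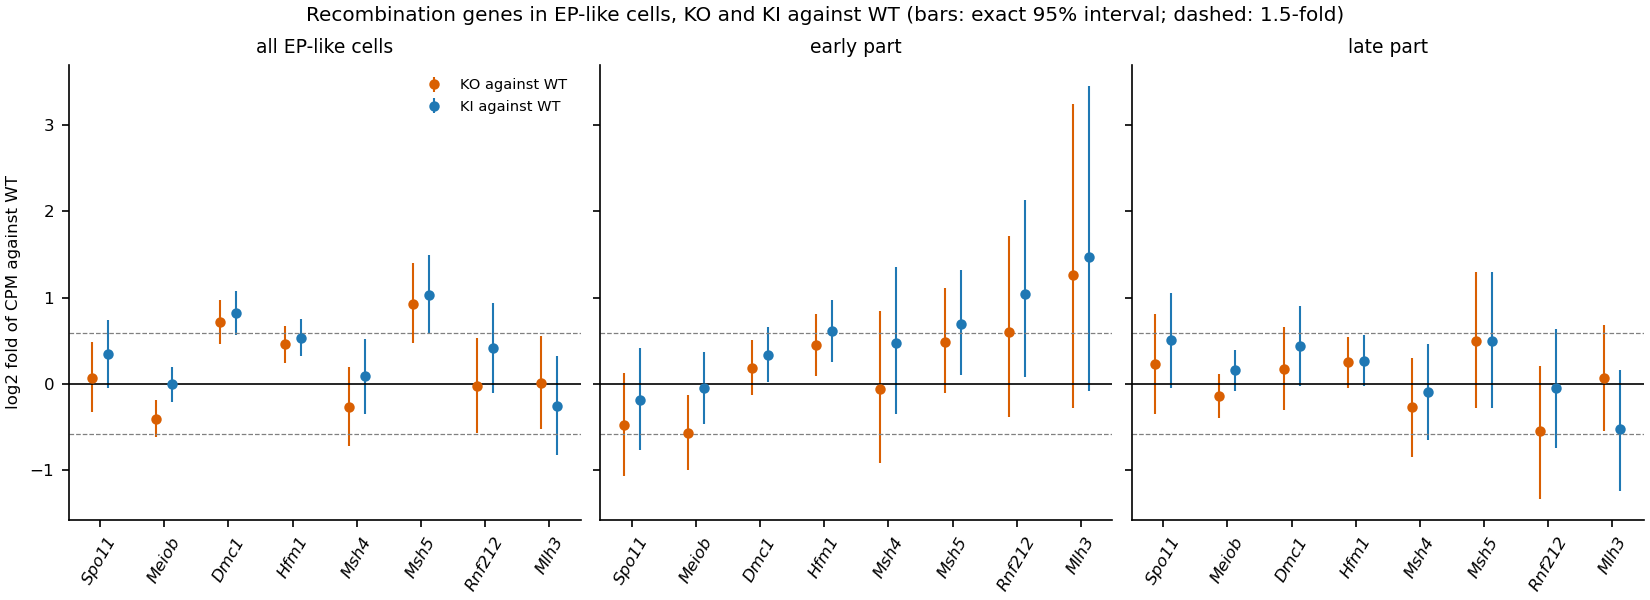
The panels plot the log2 fold against WT (vertical axis) of the 8 genes (horizontal axis) in all EP-like cells, their early part and their late part, for KO and KI, with exact 95% intervals as bars and 1.5-fold as dashed lines. Msh5 and Dmc1 lie past the upper line over all EP-like cells, at 1.9-fold and 1.64-fold in KO, and Dmc1 lies between the lines in both parts.

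In the other classes few members were past 1.5-fold. In SG-like cells 1 of 8, Meiob, was lower in KO, where 18.7% of all genes were higher and 20.7% lower, and also in KI, where 14.7% of all genes were higher and 18.9% lower. Its levels were 42.6, 14.2 and 5.66 CPM, 0.333-fold (0.0919 to 1.02) WT in KO, an interval that included 1, and 0.133-fold (0.0241 to 0.493) in KI. These rested on 12, 5 and 3 UMIs found in 2 of 32, 2 of 34 and 1 of 20 cells, and UMIs of one cell are not independent, which the intervals leave out. These SG-like cells were those whose ES marker sum was highest in WT. With free RNA estimated from these markers subtracted, the Meiob ratios kept their place against 1.5-fold. The intervals used there were those of the unsubtracted UMIs. In EP/PA-like cells 2 of 7 members above 10 CPM were lower in KO, where 3.83% of all genes were higher and 6.58% lower. They were Meiob, 0.594-fold (0.475 to 0.742) WT, and Msh4, 0.631-fold (0.479 to 0.83). In KI 0 of 7 were past the fold, where 3% of all genes were higher and 4.23% lower, and Msh4 was 0.735-fold (0.57 to 0.95) WT. In PA-like cells 0 of 6 were past it in KO, where 0.778% of all genes were higher and 1.66% lower, and 0 of 6 in KI, where 1.13% of all genes were higher and 1.97% lower. In PA/LS-like cells 0 of 5 were past it in KO, where 1.95% of all genes were higher and 3.74% lower. In KI 1 of 5, Meiob, was lower, 0.642-fold (0.437 to 0.943) WT, where 1.77% of all genes were higher and 4.11% lower. Under other processing settings it stayed past the fold, with an interval that left out 1, in only 5 of 11.

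At the end of prophase Spo11 and Mlh3 were above WT in both other libraries by less than 1.5-fold. How many of all genes lay as far above WT was not counted. Spo11 was 1.42-fold (1.26 to 1.6) WT in PA/LS-like cells of KO and 1.16-fold (1.02 to 1.32) in KI, and 1.31-fold (1.15 to 1.5) and 1.17-fold (1.01 to 1.36) in LS-like cells. Mlh3 was 1.2-fold (1.05 to 1.38) and 1.17-fold (1.02 to 1.35) in PA/LS-like and 1.32-fold (1.12 to 1.56) and 1.43-fold (1.2 to 1.71) in LS-like cells. Free RNA, estimated from spermatid markers, made up 10.1%, 1.37% and 0.437% of the UMIs of PA/LS-like and 3.71%, 2.06% and 0.717% of those of LS-like cells. With it subtracted, the log2 ratio in PA/LS-like cells of KO and KI went from 0.50 and 0.21 to 0.43 and 0.13 for Spo11 and from 0.26 and 0.23 to 0.17 and 0.12 for Mlh3. In LS-like cells 0 of 3 members above 10 CPM were past the fold in KO, where 3.5% of all genes were higher and 6.75% lower, and 0 of 3 in KI, where 3.05% of all genes were higher and 7.44% lower. Rnf212, with a mean under 10 CPM, rested there on 33, 82 and 35 UMIs and was past the fold in KO, at 1.64-fold (1.08 to 2.54) WT. Its levels of 7.07 CPM in WT and 11.6 CPM in KO were both below their empty barcodes, at 8.86 and 14.2 CPM. The LS-like class was made of 2 clusters with unlike Mlh3 levels. In that of 107, 143 and 51 cells Mlh3 was at 63, 69.9 and 75.9 CPM, 1.11-fold (0.924 to 1.34) WT in KO and 1.2-fold (0.99 to 1.47) in KI. In that of 166, 130 and 45 cells it was at 24.4, 33.5 and 40.5 CPM, 1.37-fold (0.912 to 2.07) and 1.66-fold (1.09 to 2.53). Spo11 was at 76.8 to 101.5 CPM over the libraries in the former cluster and 66.9 to 78.4 CPM in the latter.

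Beside the members, 48 other recombination genes were counted, 9 for break formation, 24 for strand processing and exchange and 15 for crossovers and joint molecules. In EP-like cells 19 of 45 were past the fold upwards and 3 downwards in KO, where 15.2% of all genes were higher and 10.3% lower, and 14 of 44 were past the fold upwards and 3 downwards in KI, where 11.4% of all genes were higher and 15.7% lower. On the break formation list 7 of 9 were past the fold upwards and 0 downwards in KO, at a median log2 ratio of 0.80. In KI 6 of 9 were past the fold upwards and 0 downwards, at 0.85. This list includes Tex15 and Zcwpw1, which are known for repair, so its counts are not of break formation alone. Of the strand exchange genes 8 of 22 were past the fold upwards and 1 downwards in KO and 5 of 22 were past the fold upwards and 2 downwards in KI. Of the crossover genes 4 of 14 were past the fold upwards and 2 downwards in KO and 3 of 13 were past the fold upwards and 1 downwards in KI. In the early part, of all 48, 6 of 45 were past the fold upwards and 6 downwards in KO, where 17% of all genes were higher and 20.6% lower, and 8 of 45 were past the fold upwards and 4 downwards in KI, where 16.1% of all genes were higher and 23.7% lower. In PA-like cells 0 of 29 were past the fold in KO, where 0.778% of all genes were higher and 1.66% lower, and 0 of 29 in KI, where 1.13% of all genes were higher and 1.97% lower.

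On the break formation list Tex15, also known for repair and transposon silencing, stood at 342, 904 and 928 CPM in EP-like cells. It was 2.64-fold (2.31 to 3.03) WT in KO and 2.71-fold (2.37 to 3.11) in KI. In the early part of the EP-like cells it stood at 1017, 1684 and 1897 CPM, 1.66-fold (1.42 to 1.93) and 1.86-fold (1.6 to 2.18). Zcwpw1, which reads the marks set by PRDM9 and is known for break repair, stood at 240.3, 387 and 340.4 CPM, and in the early part it was 1.1-fold (0.891 to 1.36) and 0.996-fold (0.802 to 1.24) WT. Ankrd31, which helps to place breaks, was at 580.00, 596 and 682 CPM and not past the fold. Mei4, Mei1 and also Tex15 were named because their ratios in these EP-like cells were among the largest, so their folds are those of selected genes. Mei4, of the complex that works with SPO11, rested on 6, 38 and 35 UMIs. It was 5.14-fold (2.16 to 14.9) and 5.07-fold (2.11 to 14.7) WT, and 3.16-fold (1.24 to 10.3) and 3.37-fold (1.31 to 11) in the early part. Mei1, also needed for breaks, stood at 26.7, 65 and 65.3 CPM, and in the early part its folds of 1.31-fold (0.79 to 2.25) and 1.4-fold (0.839 to 2.42) included 1. In the early part 3 of 9 of these genes were past the fold upwards in each contrast, Rec114, Mei4 and Tex15, where 17% of all genes were higher in KO and 16.1% in KI. In the late part these were 0 of 5 in KO, where 14.7% of all genes were higher and 10.1% lower, and 0 of 6 in KI, where 8.84% of all genes were higher and 16.8% lower.

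Among strand exchange genes Brca2, which loads recombinases, stood at 187, 368 and 380.4 CPM, 1.97-fold (1.63 to 2.39) and 2.04-fold (1.68 to 2.47) WT, and in the early part 1.2-fold (0.966 to 1.51) and 1.36-fold (1.09 to 1.71). Atm, the break-sensing kinase, was likewise named for its ratios and stood at 37.6, 108 and 84.3 CPM. Psmc3ip, whose protein assists DMC1, was at 243, 216 and 155 CPM and lower in KI, at 0.638-fold (0.512 to 0.794) WT. Rad51ap2 was at 320.3, 314 and 369.9 CPM and not past the fold. Among crossover genes Brip1, a helicase likewise named for its ratios, stood at 58.2, 126 and 160.2 CPM. Cntd1, a cyclin-like factor needed for crossover maturation, was at 231, 152 and 156 CPM, 0.658-fold (0.528 to 0.818) and 0.677-fold (0.542 to 0.843) WT, with 43.4, 62.2 and 41.7 CPM in the early and 293, 238 and 251 CPM in the late part. Rnf212b was at 127, 121 and 140.2 CPM and AI481877, which encodes the crossover factor SHOC1, at 114, 147 and 167 CPM, neither past the fold.

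**Figure D4:**
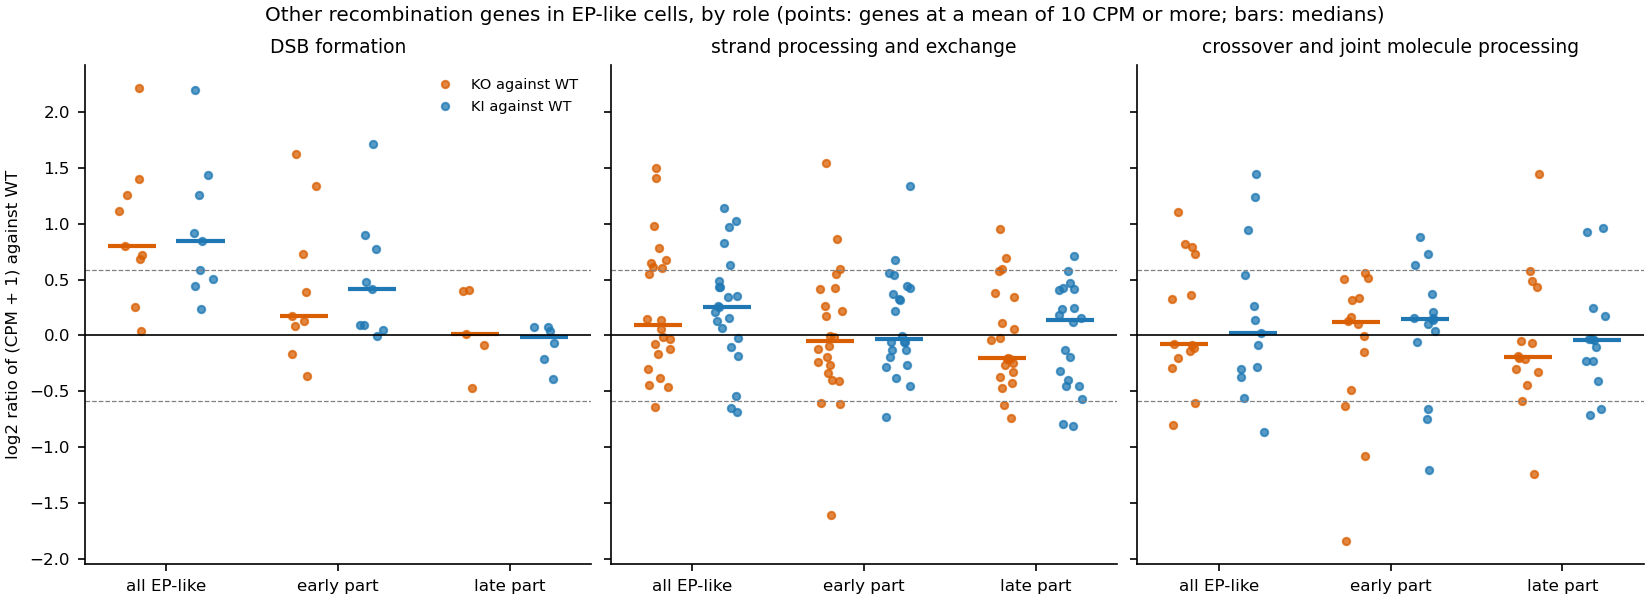
Points are log2 ratios of CPM + 1 against WT (vertical axis) of recombination genes other than the members with a mean of at least 10 CPM, grouped by role and by all EP-like cells, early part and late part (horizontal axis), for KO and KI, with bars at the medians and dashed lines at 1.5-fold. The medians of the break formation list, which includes Tex15 and Zcwpw1, stand at 0.80 and 0.85 over all EP-like cells. They are 0.18 and 0.41 in the early part and 0.01 and -0.02 in the late part.

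Over the 8 germ cell classes of the 3 libraries, 24 points that share libraries, the Pearson r of log2(CPM + 1) between members was highest for Meiob with Msh5 (0.93) and with Hfm1 (0.93). Spo11 had r of 0.80 with Mlh3 and -0.24 with Dmc1. Outside the lists, the gene with the most alike profile was Spdya (0.98) for Spo11, Ogfr (0.96) for Meiob, Syn2 (0.97) for Dmc1, Hist1h2ba (0.96) for Hfm1, Atp6v0b (0.94) for Msh4, Cenpp (0.97) for Msh5, Supt3 (0.97) for Rnf212 and Calm2 (0.99) for Mlh3. These values are descriptions with no test.

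Dmc1 was counted again in spermatids. The ES-like name rests on marker transcripts and not on cell shape, and spermatids of mice without working GRTH are known to halt before they elongate, so the ES-like cells of KO and KI need not be at the same step as those of WT. Of the 2 ES-like clusters, that of 718, 290 and 122 cells held Dmc1 at 14.2, 26.9 and 33.8 CPM, from 134, 137 and 116 UMIs. These levels were 10.1-fold (6.13 to 17.5), 8.32-fold (5.54 to 12.9) and 17.7-fold (10.6 to 31.4) those of RS-like cells. The other cluster, of 1113, 6 and 1 cells, held 2.45 CPM in WT. Msh4 was at 20.3, 12.7 and 7.86 CPM in the RS-like cluster of 384, 214 and 100 cells and at 13.7, 14.7 and 16 CPM in the former ES-like cluster. Rnf212 was at 11.3, 17 and 15.1 CPM in RS-like cells. Dmc1 in the former ES-like cluster was the only case in which a member's interval in a spermatid cluster lay above that of the empty barcodes in all 3 libraries.

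**Figure D5:**
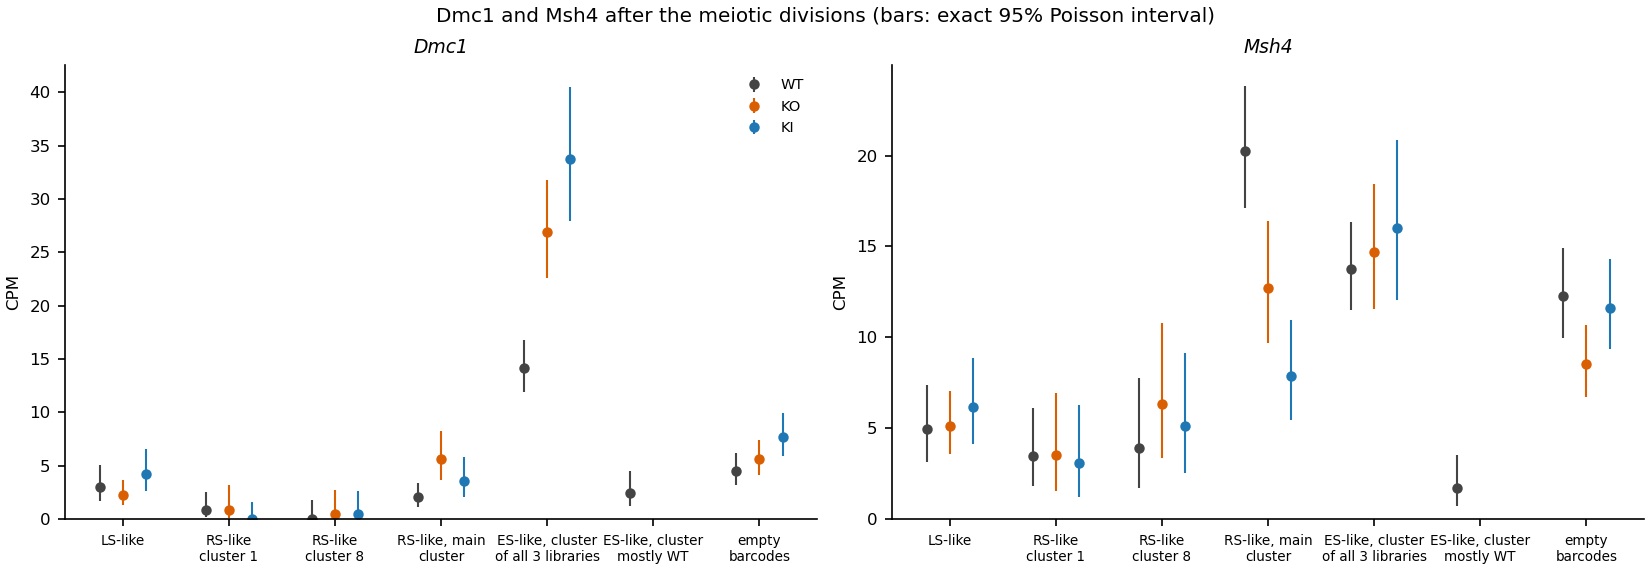
CPM of Dmc1 and Msh4 (vertical axes, linear, from 0) in LS-like cells, spermatid clusters and empty barcodes (horizontal axis) of the WT, KO and KI libraries, with exact 95% Poisson intervals as bars; KO and KI, with 6 and 1 cells, are not drawn in the ES-like cluster that is mostly WT. Dmc1 stands at 14.2, 26.9 and 33.8 CPM in the ES-like cluster of all 3 libraries and at 4.49, 5.6 and 7.71 CPM in empty barcodes.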

How the data were processed

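The authors deposited raw UMI counts per gene and barcode for 3 libraries of testicular cells (3' chemistry), aligned to mm10. The labels name Cell Ranger 2.1.1 and the file headers Cell Ranger 4. The 3 libraries held 82973909, 91388296 and 73150373 UMIs in WT, KO and KI. Cells were called in the manner of Cell Ranger (3000 expected cells, then profiles of at least 500 UMIs tested against barcodes ranked 45000 to 90000 with 10000 simulations at a false discovery rate of 0.01), and kept with over 500 genes and under 10% mitochondrial UMIs. SCTransform integration used 2000 variable genes and 100 components (R 4.3.3, Seurat 5.3.0, sctransform 0.4.2). Leiden clustering used 15 neighbours at resolution 0.3 and, for spermatogonia and spermatocytes, again at 1 (Python 3.11.15, scanpy 1.11.5, leidenalg 0.10.2). A cluster was named where a marker list led with a mean z-score of at least 0.5, by 0.2 over the next and with at least 3 markers above the other cells. It stayed unnamed if mitochondrial genes were among its 10 leading genes, or, for germ cells, if its median UMIs were under 0.6 of its libraries' medians. Where markers of another list outnumbered its own among those 10 genes, it was named for both stages (EP/PA, PA/LS) or left unnamed. These rules were set after the clusters had been seen. UMIs were summed per class and library, and folds of CPM + 1 were read against 1.5 (numpy 2.4.6, scipy 1.17.1, pandas 2.3.3, matplotlib 3.10.9). Doublets were kept in the main values, and Scrublet marked 155, 5 and 13 cells, so few in KO that the caller may not have worked. The summing and ratio steps were tested on simulated data. All members were named, and of the 48 other genes the 3 highest per role in EP-like cells of WT and up to 5 with the largest ratios of 1 sign in KO and KI. Rec114 was named after its values were seen. Members and lists were chosen with earlier results of these data known. Alternatives covered scaling, pseudocount, cell calling, clustering, integration, doublets, free RNA and thinning. The early and late parts, shared barcodes and LS-like clusters were added after the data were seen.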

Additional observations from a re-analysis of the deposited data

Results flagged for a closer look

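Dmc1 in elongated spermatid-like cells was outside the stages compared above and stood above the empty barcodes of its own library in each of the 3 libraries. In the ES-like cluster that all 3 libraries share, named from marker transcripts and not necessarily of the same step in each, it was at 14.2 CPM in WT, 26.9 CPM in KO and 33.8 CPM in KI, or 3.16-fold (2.18 to 4.67), 4.8-fold (3.45 to 6.78) and 4.38-fold (3.18 to 6.1) the empty barcodes. The cause was not tested.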

How the results depend on the processing

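No paired analysis was possible because each genotype had 1 library, and for the same reason no library could be left out. Of the log2 ratios of members under the alternatives, 1902 of 1992 kept their call and stayed within the interval of the reported ratio, a call being a ratio past 1.5-fold with an interval that leaves out 1. Another 35 kept their call but lay outside that interval, 31 lost it, 24 gained it, and no called ratio turned. Most of these ratios were not called to begin with, so a kept call there means staying uncalled. Leaving out cell calling, or requiring more genes per cell, left the cell numbers of every class but LS-like unchanged. Ratios of those classes had no room to move under either setting, yet they are counted among the kept ones. As reported, 5 of 48 ratios were called in KO against WT, 4 of 48 in KI against WT and 2 of 48 in KI against KO. The 31 losses come from these alone. The median over the members stayed, in 249 of 249 cases, between the median lower and the median upper limit of the members' ratios. No call of that median against 1.5-fold was computed for the alternatives. The class of highest level was kept in 303 of 312 cases, where the exceptions were Spo11 and, as a mean over cells, Rnf212 of WT. Over these settings the log2 ratio in EP-like cells ran for Dmc1 from 0.17 to 0.74 (called in 13 of 16) in KO and 0.33 to 1.05 (called in 13 of 16) in KI, and for Msh5 from 0.48 to 0.98 (called in 14 of 16) and 0.49 to 1.2 (called in 14 of 16). Dmc1 missed 1.5-fold within each pseudotime part and as a mean of single-cell CPM, at 0.56 in KO and 0.55 in KI. In EP/PA-like cells of KO Meiob ran from -0.88 to -0.66 (called in 13 of 13) and Msh4 from -0.68 to -0.41 (called in 9 of 13). Meiob of KI ran from -3.42 to 0.00 (called in 12 of 14) in SG-like and -0.63 to -0.33 (called in 5 of 11) in PA/LS-like cells. Rnf212 of KO ran from 0.34 to 1.05 (called in 11 of 15) in LS-like cells. Between KI and KO, Dmc1 ran from 0.13 to 1.07 (called in 10 of 13) in EP/PA-like and Meiob from -0.70 to -0.37 (called in 9 of 11) in PA/LS-like cells. The share of all genes past the fold moved in 35 of 36 values with the filter on low levels, and shares of cells moved in 281 of 432 with the thinning depth. With stages set by the share of marker UMIs, EP/PA-like, PA/LS-like and LS-like cells had no value, nor had PA/LS-like cells at resolution 0.5 or without integration. SG-like cells were few, at 32, 34 and 20, which limits the precision of their values. Subtracting free RNA changed no call against 1.5-fold of a member. The intervals in these calls were those of the unsubtracted UMIs, so only the ratio could move and whether an interval left out 1 was not tested again.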
